A study of Mus musculus with 15 samples.

Results

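The proteasome genes of the mouse heart were examined in hearts that lack MAT1 in cardiomyocytes and in littermate control hearts. They were taken by symbol, as every probe set mapped to a single gene symbol that begins with Psma, Psmb, Psmc, Psmd, Psme, Psmf or Psmg. This rule found 46 genes among 8251 genes with a single-symbol probe set. Of these, 44 encode proteasome subunits, activators or assembly chaperones. The other two, Psmc3ip, a factor of meiotic recombination, and Psme3ip1, a nuclear protein that binds PA28gamma, carry a related symbol only and were kept apart. After the dimmest 40% of all genes were left out, 40 of the 44 remained among 4951 tested genes. The 4 dim genes were Psmb8, Psmb9, Psmd10 and Psme3, and their values come from a fit on all genes. Psma8, Psmb11, Psme2 and Psmf1 had no single-symbol probe set and were not analysed here. The 2 probe sets of Psme2 also match Psme2b.

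The 26S proteasome is the protease that degrades ubiquitin-tagged proteins. Its 20S core is a stack of alpha and beta rings, and 3 of the beta subunits carry the proteolytic sites. The 19S cap has a base of ATPases that unfold substrates and a lid that removes ubiquitin, and the PA28 and PA200 activators can bind the core in place of the cap. Interferon gamma induces the immunoproteasome subunits, which replace the catalytic beta subunits, and the PA28alpha and PA28beta activators. Heart muscle relies on the proteasome for turnover of its contractile proteins. MAT1, encoded by Mnat1, is a subunit of the kinase complex of Cdk7 and cyclin H that acts within the transcription factor TFIIH.

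The 15 arrays measured RNA of whole hearts at 2 or 4 weeks of age. The 5 knockout arrays at 4 weeks and the 4 knockout arrays at 2 weeks came from αMHC-Cre+/0; MAT1 F/F mice (CKO). The controls, with 3 arrays at 4 weeks and 3 at 2 weeks, were αMHC-Cre+/0; MAT1 F/+ littermates, so Cre was present in both genotypes and the controls kept 1 wild-type allele. The αMHC promoter drives Cre in cardiomyocytes, so the other cells of a CKO heart keep the gene. In such bulk RNA, fewer cells of a type and less RNA per cell cannot be told apart. The labels do not say whether each array came from a separate mouse, so every p-value measures the spread between arrays, which may be technical in part.

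The RNA carried the marks of heart: the summed intensity of the 7 cardiomyocyte markers measured lay between 42170 and 46740 in CKO and between 51940 and 54140 in control hearts at 4 weeks, with 4 of the 7 called lower. Over the same arrays, the 8 fibroblast and matrix markers summed to 22780 to 29420 in CKO against 10640 to 11890 in control hearts, with 7 of the 8 called higher, and none of the 10 tested macrophage markers was called. The part of this shift in the values below was not tested. The 15 arrays fell into 2 sets by their correlation over all probe sets, at least 0.937 within a set and at most 0.924 across sets. The labels name no such division. Each group held arrays of both sets: 2 CKO and 1 control array of set 1 and 3 CKO and 2 control arrays of set 2 at 4 weeks, and 2 CKO and 1 control of set 1 and 2 CKO and 2 control of set 2 at 2 weeks. Both probe sets of Mnat1 were dim and do not check the labels, with 4-week differences of 0.53 ± 0.47 and -0.03 ± 0.27 (log2, standard error). With the array sets as a block, these differences were 0.45 ± 0.15 (limma adjusted p = 0.0384) and -0.06 ± 0.21. In that fit 1 probe set of the targeted gene was thus called higher in CKO hearts, and the reason was not tested.

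The proteasome genes separated the 2 array sets more widely than most genes did. The median difference of set 2 minus set 1 was 0.54 on the log2 scale over the 40 tested members and -0.00 over all tested genes. Of the members, 33 were brighter in set 2, and 57.5% were brighter by more than 0.5 on the log2 scale, against 21.3% of all tested genes. Since both sets stand in every group, this gap adds to the spread within groups, and each comparison below is given both without the array set and with it as a block. The block was chosen after the data had been seen.

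The promoters of 4 genes are shown. Psmd8, Psmd13 and Psme1 carry the widest gaps between CKO and control hearts at 4 weeks among the 40 genes above the dim limit. Psmb8 is an interferon-inducible catalytic subunit. Each promoter runs from 250 bases before to 50 bases after the gene's start in RefSeq on mouse GRCm38.p6, 5′ to 3′ along the gene's strand. Psmd8 lies at chr7:29180624-29180923 on the minus strand, Psmd13 at chr7:140882144-140882443 on the plus strand, Psme1 at chr14:55578244-55578543 on the plus strand and Psmb8 at chr17:34197945-34198244 on the plus strand. Capitals mark the ETS core CGGAAG in Psmd8 and Psmd13, an interferon-stimulated response element (GAAA, 2 bases of any kind, GAAA) in Psme1 and a gamma-activated site TTCNNNGAA in Psmb8, each searched on both strands. The matches in Psmd8 and Psme1 and the third in Psmd13 are on the opposite strand and so read as the reverse complement.
Psmd8: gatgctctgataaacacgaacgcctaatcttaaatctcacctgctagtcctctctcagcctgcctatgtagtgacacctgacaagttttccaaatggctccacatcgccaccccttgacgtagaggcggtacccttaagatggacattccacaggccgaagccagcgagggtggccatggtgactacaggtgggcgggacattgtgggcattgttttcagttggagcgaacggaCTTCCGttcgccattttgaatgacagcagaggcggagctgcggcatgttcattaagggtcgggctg
Psmd13: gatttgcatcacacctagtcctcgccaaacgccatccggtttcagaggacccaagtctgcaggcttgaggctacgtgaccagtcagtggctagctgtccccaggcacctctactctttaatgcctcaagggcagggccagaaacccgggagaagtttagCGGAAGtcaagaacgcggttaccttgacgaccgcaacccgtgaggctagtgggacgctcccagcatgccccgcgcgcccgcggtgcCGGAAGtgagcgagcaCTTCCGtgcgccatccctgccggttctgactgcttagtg
Psme1: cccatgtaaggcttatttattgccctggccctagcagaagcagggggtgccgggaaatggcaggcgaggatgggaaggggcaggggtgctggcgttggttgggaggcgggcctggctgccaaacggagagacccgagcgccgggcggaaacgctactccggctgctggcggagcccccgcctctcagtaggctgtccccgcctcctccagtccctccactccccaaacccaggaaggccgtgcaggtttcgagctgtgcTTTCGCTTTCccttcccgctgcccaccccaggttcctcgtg
Psmb8: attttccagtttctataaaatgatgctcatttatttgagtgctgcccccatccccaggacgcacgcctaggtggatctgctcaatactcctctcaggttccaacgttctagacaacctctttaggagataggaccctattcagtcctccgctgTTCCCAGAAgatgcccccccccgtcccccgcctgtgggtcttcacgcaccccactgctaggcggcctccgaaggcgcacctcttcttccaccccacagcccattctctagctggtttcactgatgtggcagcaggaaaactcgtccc

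A promoter was available for 37 of the 44 genes. The ETS core stood in 21 of the 37, which is 56.8%, against 32.9% of 3962 tested genes and 16.9% of all 32851 promoters of that length. Psmd8 held 1 such core and Psmd13 held 3, while the Psme1 promoter held none. Psmg1, called lower at 4 weeks with the array-set block, also held the core. So did Psma6, Psmb3, Psmb4, Psmc1, Psmc4, Psmd4, Psmd14 and Psme4, called higher there. Psma2, Psma5, Psma7 and Psmd7, also called higher, were not among the 21. Whether the core goes with the direction of change was not tested. The interferon-stimulated response element was found in 5 of the 37 promoters (13.5%, against 3.86% of tested genes and 3.44% of all promoters), namely those of Psmb3, Psmd4, Psmd9, Psme1 and Psmg4. The gamma-activated site was found in 3, those of Psmb8, Psmd2 and Psmg1 (8.11%, against 8.18% of tested genes and 8.30% of all promoters). Neither of these sites was found in the promoter of Psmb9, another interferon-inducible catalytic subunit. The antioxidant response element core TGACNNNGC was found in 6 (16.2%, against 17% of tested genes and 12.4% of all promoters). The CCAAT box was found in 13 (35.1%, against 42.3% of tested genes and 37.4% of all promoters). A match describes these letters only.

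At 4 weeks, 1 proteasome gene rose and 1 fell in CKO hearts beyond the spread between arrays. Psmd8, the lid subunit Rpn12 of the 19S cap, was 2.95-fold higher, and Psme1, the interferon-inducible activator PA28alpha, was 2.64-fold lower. The remaining 38 tested genes did not pass limma's test at an adjusted p of 0.05. The 2 calls make 5% of the members, against 11.2% of all tested genes called in either direction, and 7 members had an unadjusted p under that level, 5 higher and 2 lower. The median log2 difference was 0.08 over the members and 0.09 over all tested genes. Without the block no member was called when control array 2 or 3 of 4 weeks was left out or when arrays were scaled to 1 median, and 1 was called without CKO array 3 or 4 of 4 weeks.

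The 19S cap held the widest increase. Psmd8 had intensities of 971 and 1177 on the set 1 arrays and 2122, 2343 and 2841 on the set 2 arrays of CKO hearts at 4 weeks, against 363 on the set 1 array and 669 and 807 on the set 2 arrays of control hearts. Every CKO array lay above every control array, the nearest pair being the set 1 CKO array at 971 and the set 2 control array at 807. At 2 weeks Psmd8 had 437 and 496 (set 1) and 1133 and 1237 (set 2) in CKO hearts, against 463 (set 1) and 932 and 1019 (set 2) in control hearts, which overlap. At 4 weeks it averaged 1891 ± 793 in CKO hearts (SD, n = 5) and 612.7 ± 227 in control hearts (SD, n = 3), a log2 difference of 1.56 ± 0.44 (standard error, limma adjusted p = 0.0345). With array sets as a block, the difference was 1.64 ± 0.11 (limma adjusted p = 4.68e-08). It was 1.52 within set 1 and 1.70 within set 2. Without the block the call was lost when any 1 control array or any 1 set 2 CKO array of 4 weeks was left out, and the log2 difference then lay between 1.23 and 1.79.

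**Figure D1:**
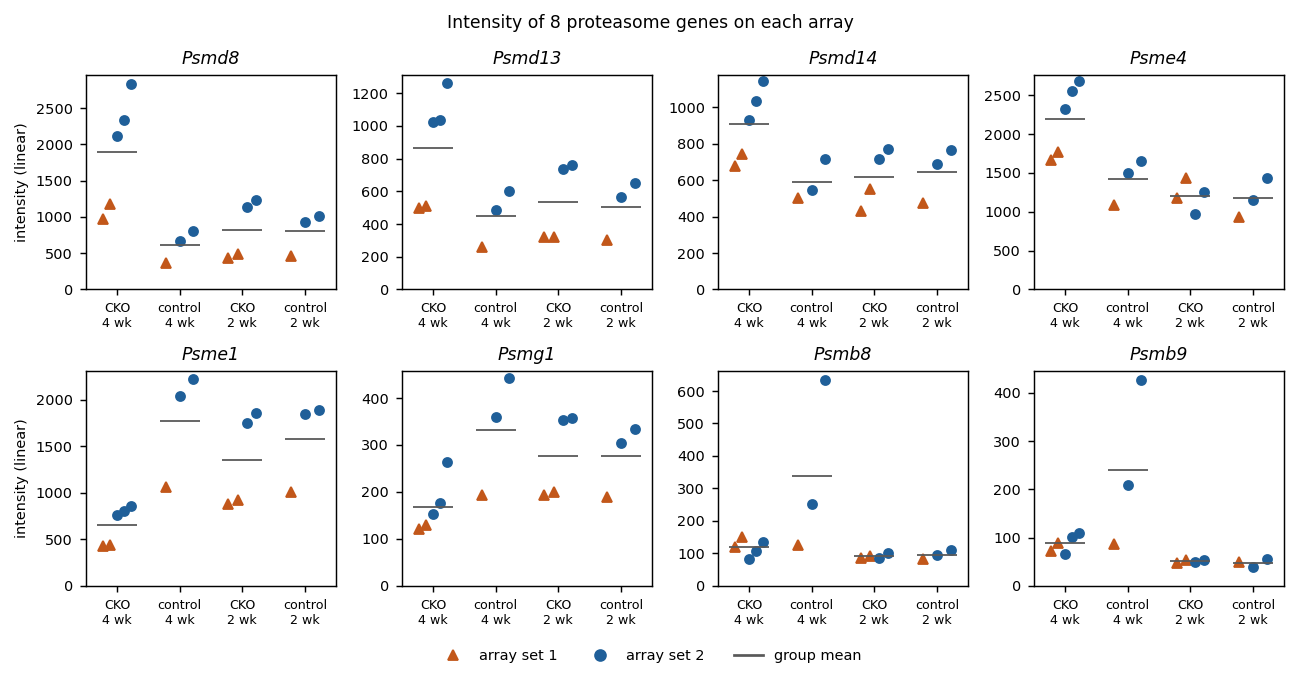
Linear intensity of 8 proteasome genes on each of the 15 arrays, by group, with triangles for array set 1, circles for array set 2 and a line at each group's mean. Psmd8 lies highest in CKO hearts at 4 weeks (mean 1891) and Psme1 lowest there (mean 658.5), and set 2 lies above set 1 for most of the genes.

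Psmd13 and Psmd14 are also lid subunits, and Psmd14 (Rpn11) is the enzyme that cuts ubiquitin from substrates. Psmd13 had 508 and 501 (set 1) and 1036, 1022 and 1264 (set 2) in CKO hearts at 4 weeks, against 258 (set 1) and 488 and 602 (set 2) in control hearts. The groups overlapped across sets and not within either set. Its log2 difference was 0.90 ± 0.42 (limma adjusted p = 0.212), and with array sets as a block 0.97 ± 0.10 (limma adjusted p = 2.55e-06). Psmd14 had 740.4 and 679 (set 1) and 931, 1143 and 1034 (set 2) in CKO hearts, against 502 (set 1) and 544 and 715 (set 2) in control hearts. Its difference was 0.60 ± 0.23 (limma adjusted p = 0.125) and, with the block, 0.64 ± 0.11 (limma adjusted p = 0.000442). With the block, 5 of the 11 tested non-ATPase subunits of the cap were called higher and none lower, against 23.3% and 12.2% of all tested genes. They were Psmd8, Psmd13, Psmd14, the ubiquitin receptor Psmd4 (0.35) and Psmd7 (0.32). The other 6 lay between -0.20 and 0.14. For Psmd11, 2 probe sets of similar mean intensity disagreed with the block, at -0.20 ± 0.14 for the brighter and 0.27 ± 0.08 for the other (limma adjusted p = 0.0292).

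All 6 ATPases of the base, Psmc1 to Psmc6, had log2 differences above 0, between 0.04 and 0.55, as did 60.9% of all tested genes, and none was called without the block. With the block and quantile normalization 4 of the 6 lay above 0, the lowest at -0.06. Without the block, dimmer second probe sets gave -0.15 for Psmc3 and -0.29 for Psmc5, and the dimmest probe set of Psmc3 gave 0.15. Psmc4 was the ATPase with the smallest p. It had 488 and 514 (set 1) and 393, 288 and 366 (set 2) in CKO hearts at 4 weeks, against 395 (set 1) and 227 and 216 (set 2) in control hearts, so that set 1 was the brighter set for this gene. Its difference was 0.55 ± 0.24 (limma adjusted p = 0.187), and 0.51 ± 0.11 with the block (limma adjusted p = 0.00153). Psmc1, at 0.33, was the other ATPase called with the block.

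In the 20S core, no gene of the alpha ring or the constitutive beta ring was called without the block. With it, 4 of the 7 alpha genes were called higher, against 23.3% of all tested genes. They were Psma5 (0.63 ± 0.10), Psma6 (0.46 ± 0.06), Psma7 (0.46) and Psma2 (0.33), and the other 3 lay between -0.17 and 0.19. Psma5 had 585 and 541 (set 1) and 1062, 944 and 1191 (set 2) in CKO hearts at 4 weeks, against 332 (set 1) and 685 and 731 (set 2) in control hearts, with no overlap within a set. The median log2 difference with the block was 0.33 over the 7 alpha genes, 0.05 over the 7 constitutive beta genes and 0.08 over all tested genes. Of the beta genes, Psmb3 (0.47 ± 0.09) and Psmb4 (0.25 ± 0.08) were called with the block. A second, dimmer probe set of Psmb4 gave -0.27 ± 0.24, and its dimmest probe set gave 0.07 ± 0.12, both with the block.

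The catalytic subunits of the constitutive core were not called at 4 weeks without the block or with it, and Psmb7 was called lower (-0.20, limma adjusted p = 0.0282) once quantile normalization was added to the block. Psmb5, which carries the chymotrypsin-like site, had a log2 difference of -0.12 ± 0.24, Psmb6, with the caspase-like site, 0.01 ± 0.20 and Psmb7, with the trypsin-like site, -0.09 ± 0.11. Psmb5 had 923, 817, 1250, 1044 and 1027 in CKO hearts, against 771, 1127 and 1480 in control hearts, which overlap. Psmb6 had 989, 907, 1314, 1186 and 1345 in CKO hearts, against 956, 1205 and 1229 in control hearts. Psmb7 had 1770.0, 1527, 1962, 1763 and 2065 in CKO hearts, against 1754, 1976 and 2072 in control hearts. For both genes the groups overlapped. With the block the 3 differences were -0.08, 0.05 and -0.08.

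The activators Psme1 and Psme4 lay on opposite sides of 0 at 4 weeks. Psme1 had 440 and 431 (set 1) and 758, 862 and 802 (set 2) in CKO hearts at 4 weeks, against 1063 (set 1) and 2044 and 2221 (set 2) in control hearts. Every CKO array lay below every control array. At 2 weeks Psme1 had 881 and 927 (set 1) and 1749 and 1863 (set 2) in CKO hearts, against 1006 (set 1) and 1853 and 1889 (set 2) in control hearts, where the groups overlap. At 4 weeks the mean was 658.5 ± 207 in CKO hearts (SD, n = 5) and 1776 ± 624 in control hearts (SD, n = 3). The log2 difference was -1.40 ± 0.35 (limma adjusted p = 0.0195), and -1.34 ± 0.07 with the block (limma adjusted p = 6.69e-09). Within the sets it was -1.26 and -1.39. Without the block the call was lost when control array 2 or 3 of 4 weeks was left out (-1.26, limma adjusted p = 0.103, and -1.20, limma adjusted p = 0.105). A second probe set of Psme1, with a mean intensity of 20.5, gave -0.08 ± 0.24 with the block.

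Psme4 encodes PA200, the other activator measured above the dim limit. It had 1768 and 1666 (set 1) and 2557, 2320.2 and 2679 (set 2) in CKO hearts at 4 weeks, against 1094 (set 1) and 1505 and 1654 (set 2) in control hearts, with all CKO arrays above all control arrays. The log2 difference was 0.62 ± 0.20 (limma adjusted p = 0.0666), and 0.64 ± 0.15 with the block (limma adjusted p = 0.00375). Psmd8 and Psme4 were the members whose CKO arrays all lay above the control arrays, as 10.8% of all tested genes did, and Psme1 was the member whose CKO arrays all lay below, as 6.56% did. Psme3, the dim nuclear activator PA28gamma, had a difference of -0.06 ± 0.27.

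The 4 Psmg assembly chaperones of the 20S core all had differences below 0, while 60.9% of all tested genes lay above 0. A second, dimmer probe set of Psmg3 gave 0.33 ± 0.34. Pomp, the maturation protein of the core, falls outside the symbol rule and went the other way, with means of 1259 in CKO and 951.1 in control hearts at 4 weeks. Psmg1 (PAC1), which forms a pair with Psmg2 (PAC2) that helps build the alpha ring, had 120.4 and 129 (set 1) and 177, 154 and 263 (set 2) in CKO hearts at 4 weeks, against 193 (set 1) and 360.2 and 442 (set 2) in control hearts. Within each set every CKO array lay below every control array. Its log2 difference was -0.89 ± 0.32 (limma adjusted p = 0.0918), and -0.84 ± 0.15 with the block (limma adjusted p = 0.000355). Psmg2, Psmg3 and Psmg4 lay at -0.47, -0.26 and -0.35 and were not called in either fit. The 3 chaperones of the base, Psmd5, Psmd9 and the dim Psmd10 (gankyrin), had differences of 0.15, -0.00 and 0.21 and were not called. The 2 genes kept apart had differences with the block of -0.93 ± 0.29 for Psmc3ip, which is dim, and 0.33 ± 0.11 for Psme3ip1 (limma adjusted p = 0.0265 and 0.0255).

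**Figure D2:**
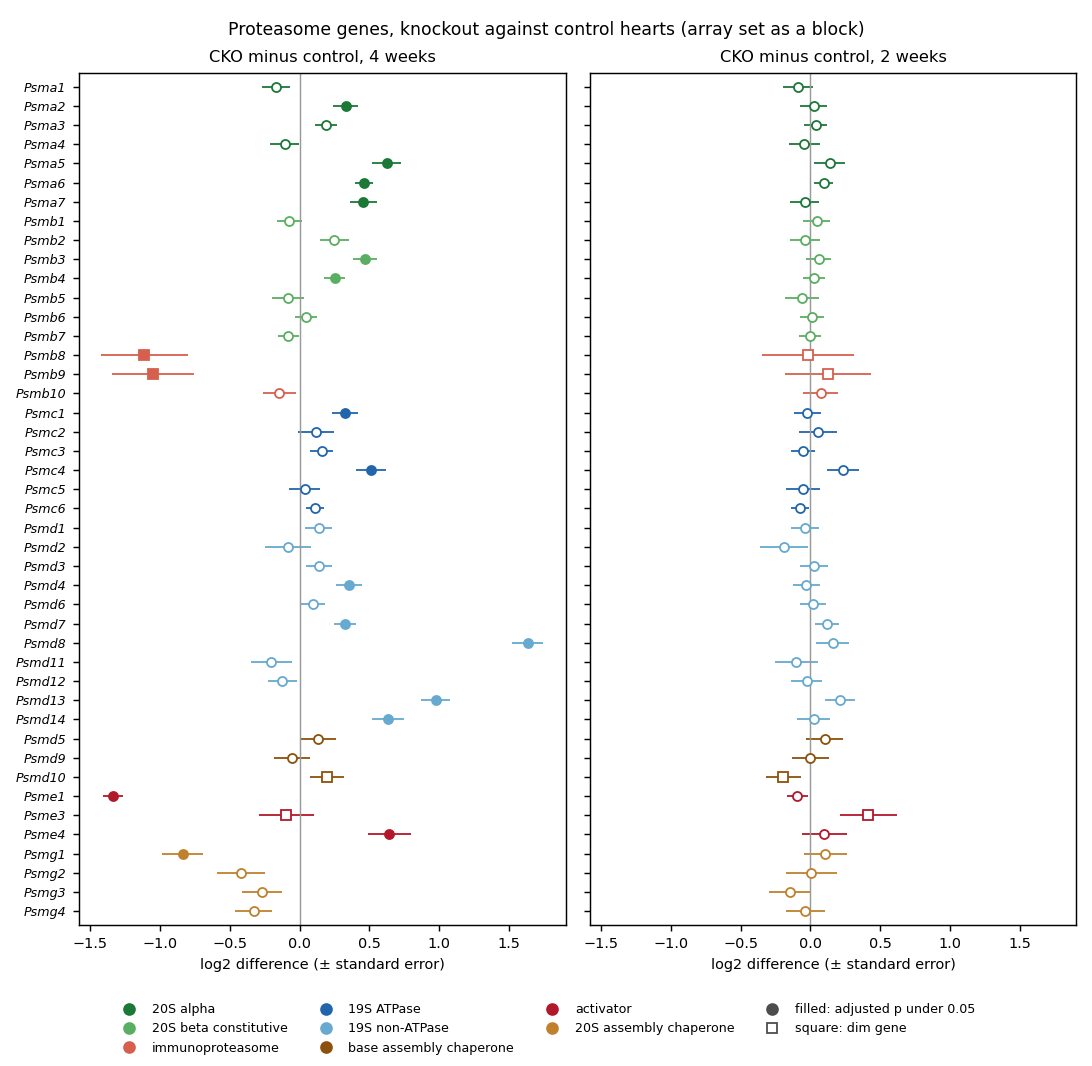
Log2 difference of CKO minus control hearts for each of the 44 genes with array sets as a block, at 4 weeks (left) and 2 weeks (right), with bars of 1 standard error, filled symbols for adjusted p under 0.05 and squares for dim genes. At 4 weeks Psmd8 (1.64) and Psme1 (-1.34) lie farthest out and the alpha ring lies mostly right of 0, while at 2 weeks no symbol is filled.

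With array sets as a block, 16 of the 40 genes were called at 4 weeks. The 14 called higher make 35% of the members, against 23.3% of all tested genes, and the 2 called lower, Psme1 and Psmg1, make 5%, against 12.2%. Quantile normalization together with the block gave 9 called higher and 5 lower, against 17.8% and 17.3% of all tested genes. It added Psmb7 (-0.20), Psmg2 (-0.49) and Psmg4 (-0.40) as lower, and it lost Psma2, Psmb4, Psmc1, Psmd4 and Psmd7. The fit within set 1 alone called 10 members (25%, against 23.6% of all tested genes) and that within set 2 alone 13 (32.5%, against 29.1%). Within both sets, 15 members had all CKO arrays above all control arrays, against 26.0% of all tested genes, and 4 had them below, against 14.9%. The difference had the same sign in both sets for 80% of the members and for 73.4% of all tested genes.

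**Figure D3:**
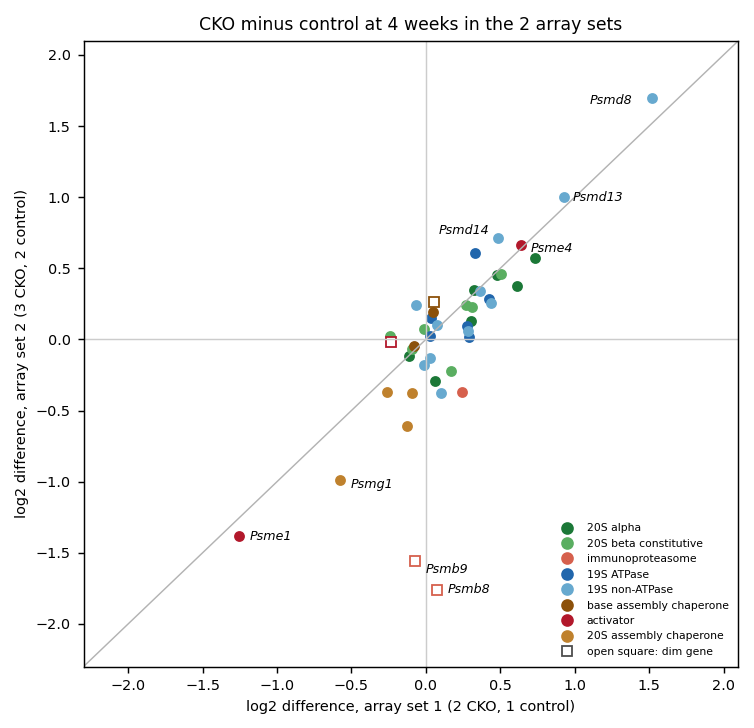
Log2 difference of CKO minus control hearts at 4 weeks within array set 2 (vertical) against the same within array set 1 (horizontal) for the 44 genes, with open squares for dim genes and a diagonal of equal values. Psmd8 (1.52 and 1.70) and Psme1 (-1.26 and -1.39) lie near the diagonal, while Psmb8 (0.08 and -1.76) and Psmb9 (-0.07 and -1.56) lie far below it.

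No immunoproteasome gene was called at 4 weeks without the block. Psmb10 (MECL1), the only one above the dim limit, had 655 and 649 (set 1) and 803, 698 and 721 (set 2) in CKO hearts at 4 weeks, against 548 (set 1) and 849.6 and 1083 (set 2) in control hearts, and its difference was -0.18 ± 0.22 (limma adjusted p = 0.762). Psmb8 (LMP7) had 151 and 119 (set 1) and 135, 109 and 83.8 (set 2) in CKO hearts, against 126 (set 1) and 252 and 634 (set 2) in control hearts. Psmb9 (LMP2) had 89.4 and 73.2 (set 1) and 102, 109.8 and 66.6 (set 2) in CKO hearts, against 85.9 (set 1) and 209 and 426 (set 2) in control hearts. For both genes the control arrays of set 2 stood above every CKO array and the control array of set 1 stood among them.

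At 2 weeks Psmb8 lay between 86.2 and 100.4 in CKO hearts and between 84.2 and 109 in control hearts, and Psmb9 between 48.0 and 54.3 in CKO hearts and between 39.3 and 56.2 in control hearts. The 4-week difference was -1.13 ± 0.34 for Psmb8 (limma adjusted p = 0.0614) and -1.07 ± 0.33 for Psmb9 (limma adjusted p = 0.0667). With the block it was -1.11 ± 0.31 (limma adjusted p = 0.0144) and -1.05 ± 0.29 (limma adjusted p = 0.0136). Within set 1 the differences were 0.08 and -0.07, and within set 2 they were -1.76 and -1.56. Without control array 3 of 4 weeks they were -0.55 and -0.56, and neither gene was called with the block (limma adjusted p = 0.101 and 0.111).

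The same 2 control arrays stood above every CKO array for 9 of the 19 measured genes of antigen processing and interferon signalling, below every CKO array for 3 (Ifng, Ifngr1 and Jak2), and neither for 7, among them Tap1, B2m, Irf1 and Irf8. These 2 arrays, both of set 2, were picked because Psmb8 and Psmb9 were high on them. The share of all genes in these positions was not computed, so the counts do not show whether the list is unusual. Iigp1, an interferon-inducible GTPase, had 214 and 149 (set 1) and 82.6, 98.8 and 88.7 (set 2) in CKO hearts at 4 weeks, against 283 (set 1) and 971 and 2113 (set 2) in control hearts. The dim Igtp, another such GTPase, lay between 13.9 and 34.3 in CKO hearts, against 37.7, 81.5 and 325 in control hearts. The peptide transporter gene Tap2, also dim, lay between 62.8 and 92.8 in CKO hearts, against 74.6, 148 and 196 in control hearts. Control array 3 was the highest of the 4-week arrays for Iigp1, Igtp and Tap2 and for Psmb8 and Psmb9. The same array was also the highest of the 4-week arrays for Psme1 (2221). For Psme1 the control arrays of 4 weeks (1063, 2044 and 2221) lay close to those of 2 weeks of the same set (1006, 1853 and 1889). Its 4-week log2 difference of CKO minus control was -1.26 within set 1.

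Of 22 genes of antigen processing and interferon signalling, 19 were measured and 8 were above the dim limit. Iigp1 (-2.66, limma adjusted p = 0.00195) and Ifngr2, a chain of the interferon gamma receptor (-0.57, limma adjusted p = 0.00772), were lower in CKO hearts at 4 weeks and none was higher. With the block, 4 were lower, the other two being the class I genes H2-K1 (-0.41) and H2-D1 (-0.46), and the kinase gene Jak1 was higher (0.30), against 12.2% of all tested genes lower and 23.3% higher. The mean intensity of Iigp1 was 1122 in control hearts of 4 weeks and between 122 and 171.6 in the other groups. Psme3, left out as dim, averaged 142.8 over all arrays. Iigp1 thus passed the dim filter mainly through the group where it was high, so its call is not separate support. The summed intensity of the 19 genes lay between 8488 and 10550 in CKO hearts and between 9249 and 17330 in control hearts at 4 weeks. At 2 weeks it lay between 6405 and 8028 in CKO hearts and between 6787 and 7803 in control hearts. The part of this shift in the Psmb8 and Psmb9 values was not tested.

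**Figure D4:**
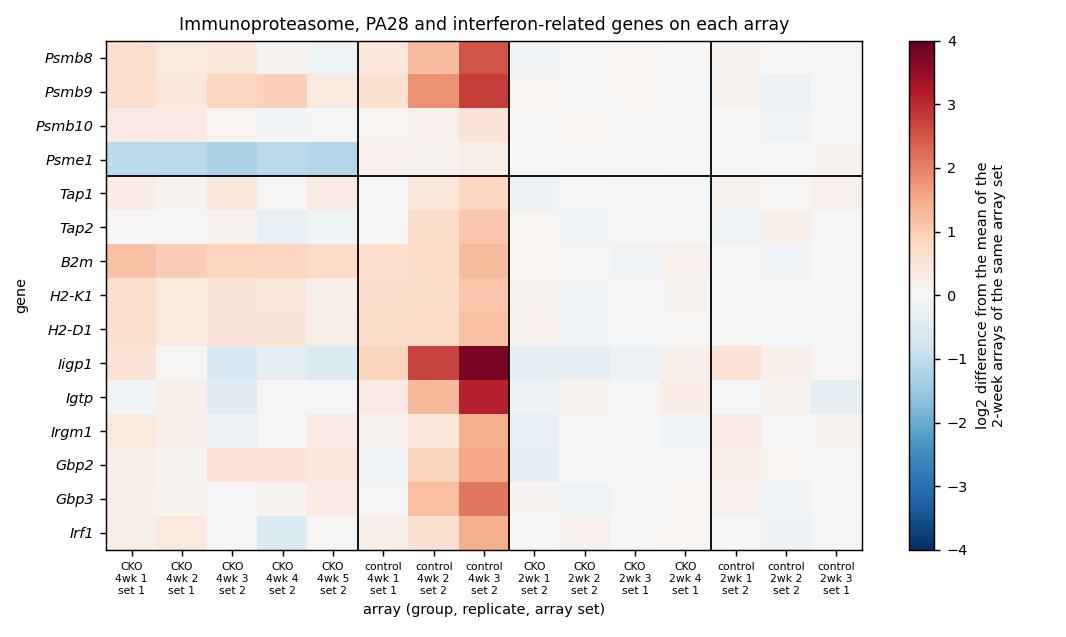
Log2 difference of each array from the mean of the 2-week arrays of its own set, for the immunoproteasome genes and Psme1 (above the line) and 11 selected genes of the 19 measured for antigen processing and interferon signalling (below it), with arrays ordered by group. Among the genes left out are Ifng, Ifngr1 and Jak2, for which control arrays 2 and 3 of 4 weeks lay below every 4-week CKO array. Ifngr2, for which they lay above, is also left out. Control arrays 2 and 3 of 4 weeks are high for Psmb8, Psmb9, Iigp1 (971 and 2113) and Igtp (81.5 and 325), while Psme1 is low on the 5 CKO arrays of 4 weeks.

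Genes that work with the proteasome were taken from a list of 30 partners and ubiquitin suppliers, of which 16 were measured and 15 tested. None was called at 4 weeks without the block. With it, 7 of the 15 were higher and none lower, against 23.3% and 12.2% of all tested genes. The 7 were Sem1, a small lid subunit (0.51), Pomp, the maturation protein of the core (0.44), Uchl5, a deubiquitinase of the cap (0.79), the conjugating enzymes Ube2d3 (0.62) and Ube2n (0.45), and Nfe2l1 and Nfe2l2. The median over the 15 was 0.29 with the block, against 0.08 over all tested genes.

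Nfe2l1 is the transcription factor known to raise proteasome genes when proteasome activity is short, and Nfe2l2 raises antioxidant genes. Nfe2l1 had 2291 and 2149 (set 1) and 2021, 1724 and 1960.2 (set 2) in CKO hearts at 4 weeks, against 1667 (set 1) and 1630.1 and 1617 (set 2) in control hearts, with every CKO array above every control array. Its difference was 0.30 ± 0.13 (limma adjusted p = 0.157), and 0.29 ± 0.08 with the block (limma adjusted p = 0.0122). Nfe2l2 had 477 and 415 (set 1) and 746, 980.3 and 641 (set 2) in CKO hearts, against 362 (set 1) and 397 and 491 (set 2) in control hearts, which overlap across sets. Its difference was 0.57 ± 0.22 (limma adjusted p = 0.124), and 0.60 ± 0.16 with the block (limma adjusted p = 0.00951). Of 12 muscle ubiquitin ligases, 5 were measured and 4 tested, and Mdm2, the ligase of p53, was the one called (0.58, limma adjusted p = 0.0476).

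At 2 weeks no proteasome gene passed the test between CKO and control hearts. None of the 40 was called by limma, against 0.0202% of all tested genes, none had an unadjusted p under 0.05, and the same held with the block, where 0.0808% of all tested genes were called. Psmd8 had a log2 difference of -0.03 ± 0.46 without the block and 0.16 ± 0.12 with it, and Psme1 -0.25 ± 0.37 and -0.10 ± 0.08. Psmb5, Psmb6 and Psmb7 had -0.14, -0.07 and -0.03, and Psmb8, Psmb9 and Psmb10 had -0.06, 0.07 and -0.00.

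Whether the CKO effect differed between 4 and 2 weeks was tested as an interaction. Without the block no member was called, against 1.56% of all tested genes, and 2 had an unadjusted p under 0.05. With the block 9 were called: 7 with a more positive effect at 4 weeks, or 17.5% of the members against 7.19% of all tested genes, and 2 with a more negative one, or 5% against 5.27%. Psmd8 had 1.48 ± 0.16 (limma adjusted p = 4.29e-05) and Psme1 -1.24 ± 0.10 (limma adjusted p = 5.03e-06). Psmg1 (-0.95), Psmd13 (0.76), Psmd14 (0.61), Psma7 (0.50), Psma5 (0.49), Psmb3 (0.41) and Psma6 (0.36) were the others. The 9 calls fell to 4 without control array 2 of 4 weeks or control array 1 of 2 weeks, and to 5 without control array 3 of 2 weeks. Without the block, Psmb5, Psmb6, Psmb7 and Psmb10 had 0.03, 0.08, -0.07 and -0.17. For Psmb8 and Psmb9 the interaction was -1.10 and -1.18 with the block, and neither was called (limma adjusted p = 0.173 and 0.112).

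Between 4 and 2 weeks of age, Psme4 rose in CKO hearts. It had 1768, 1666, 2557, 2320.2 and 2679 at 4 weeks, against 1178, 1429, 972 and 1257 at 2 weeks, with no overlap. The log2 difference was 0.84 ± 0.19 (1.79-fold, limma adjusted p = 0.0150), and 0.81 ± 0.14 with the block. The call was lost when arrays were scaled to 1 median and with the replicate number as a block, where 0 members were called. This was the 1 call among 40 members (2.5%, against 6.58% of all tested genes). The 4-week CKO arrays are the same as in the comparison with control hearts of that age. In control hearts Psme4 had 1094, 1505 and 1654 at 4 weeks, against 932, 1153 and 1438 at 2 weeks, a difference of 0.27 ± 0.23.

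With the block, 17 members were called between ages in CKO hearts. The 15 higher at 4 weeks make 37.5% of the members, against 14.4% of all tested genes, and the 2 lower, Psme1 (-1.09 ± 0.07) and Psmg1 (-0.73 ± 0.14), make 5%, against 10.8%. Psmd8 (1.10 ± 0.10), Psme4, Psmd7 (0.44 ± 0.07), Psmd13 (0.59 ± 0.09) and Psma6 (0.34 ± 0.06) had the smallest p among those higher. The 19S cap supplied 9 of the 15: Psmc1, Psmc3, Psmc6, Psmd4, Psmd6, Psmd7, Psmd8, Psmd13 and Psmd14. These were 3 of the 6 tested ATPases and 6 of the 11 tested non-ATPase subunits. The share was similar in the alpha ring, with 4 of 7 genes, and lower in the constitutive beta ring, with 1 of 7. The median over the members was 0.16, against 0.01 over all tested genes. Without the block, the catalytic genes Psmb5, Psmb6 and Psmb7 had -0.01, 0.07 and -0.00 and the immunoproteasome genes Psmb8, Psmb9 and Psmb10 had 0.31, 0.62 and 0.13, none of them called.

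In control hearts no tested member was called between 4 and 2 weeks, against 0.727% of all tested genes, and none had an unadjusted p under 0.05. With the block none was called either, against 2.87% of all tested genes higher and 3.05% lower, and 6 had an unadjusted p under 0.05. Psmd8 had -0.38 ± 0.13, Psme1 0.15 ± 0.08 and Psmb10 0.31 ± 0.13 with the block, and Psmb5, Psmb6 and Psmb7 lay between -0.03 and 0.06. The dim Psmb8 (1.38 ± 0.35, limma adjusted p = 0.0392) and Psmb9 (1.76 ± 0.33, limma adjusted p = 0.00566) were higher at 4 weeks with the block. For both genes every control array of 4 weeks lay above every control array of 2 weeks, with values of 126, 252 and 634 at 4 weeks against 84.2, 95.9 and 109 at 2 weeks for Psmb8. The same held for Psmb9 in CKO hearts, with 66.6 to 109.8 at 4 weeks against 48.0 to 54.3 at 2 weeks. For Psmb8 the CKO arrays of the 2 ages overlapped.

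**Figure D5:**
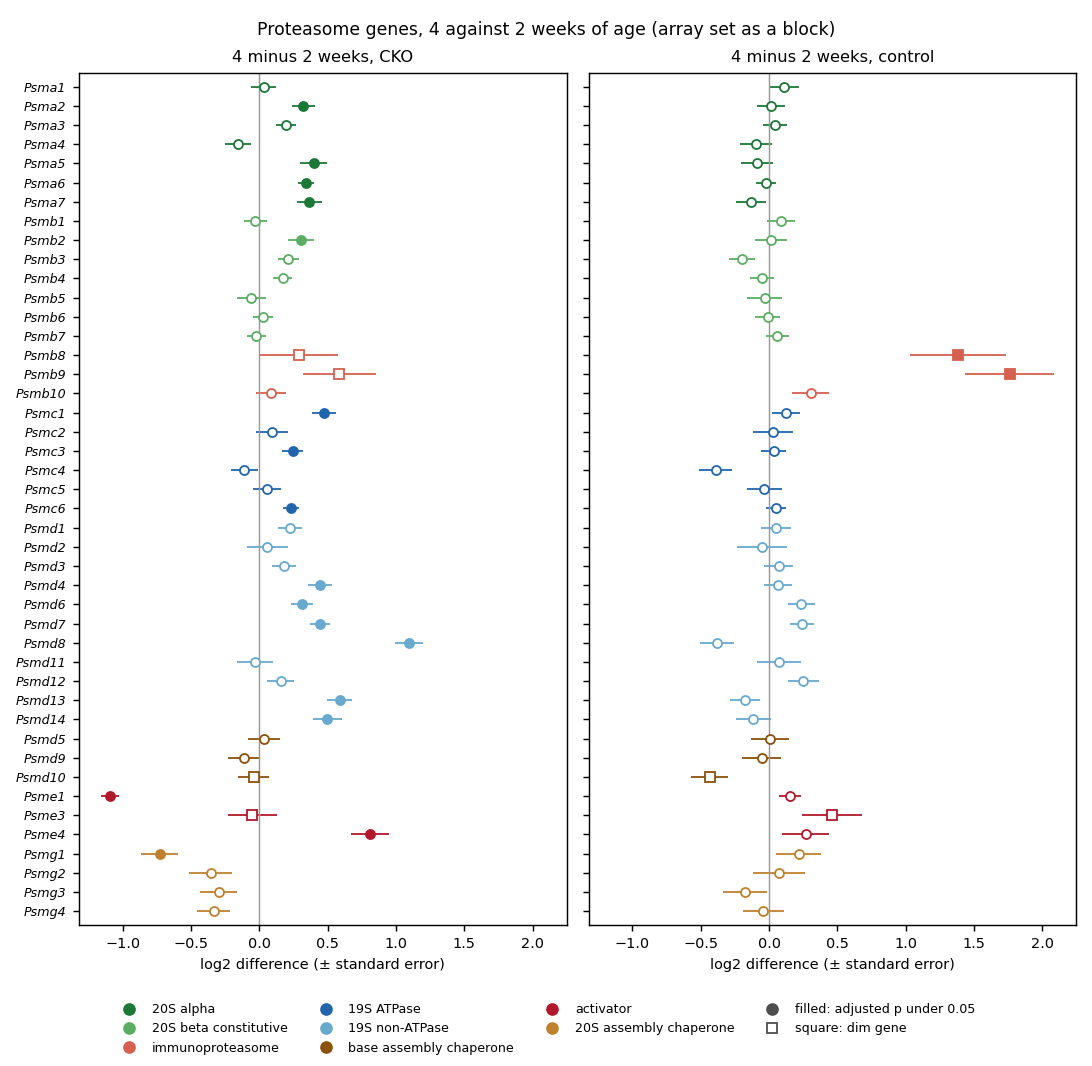
Log2 difference of 4 minus 2 weeks for each of the 44 genes with array sets as a block, in CKO hearts (left) and control hearts (right), with bars of 1 standard error, filled symbols for adjusted p under 0.05 and squares for dim genes. In CKO hearts Psmd8 (1.10) and Psme4 (0.81) lie farthest right and Psme1 (-1.09) farthest left, and in control hearts only Psmb8 (1.38) and Psmb9 (1.76) are filled.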

How the data were processed

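RNA was isolated with Trizol and RNeasy columns, labelled with biotin by reverse transcription and hybridised to 1-colour arrays, per the labels' protocols. The authors deposited 1 linear intensity per probe set and array. The sources used here name no software, background correction or scaling for them. Array medians lay between 173.7 and 216.8 (ratio 1.248, under the limit of 1.25), so the deposited scaling was kept, and the lowest value, 0.95, was shared by 81 to 191 probe sets an array. The number of arrays limits the precision.

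Of 12422 probe sets, 10833 had 1 gene symbol, 396 several and 1193 none. The probe set with the highest mean intensity stood for its gene, and 8 members had several. Intensities of different genes were not compared. Values were taken as log2(intensity + 16), so fold changes of dim genes are understated. limma 3.58.1 in R 4.3.3 fitted 1 coefficient per group over all 15 arrays, with eBayes, a trend on intensity, and Benjamini-Hochberg adjustment over 4951 genes, two-sided. The test was tested on simulated data. Dim genes were fitted among all 8251 genes.

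The members and lists were chosen with earlier results of these data known. By rule, the text names the immunoproteasome, PA28 and constitutive catalytic genes, the called members with the smallest p and the member of each class with the smallest p at 4 weeks. Genes called with the array-set block, and the interferon-induced genes Igtp and Tap2, were named after their values were seen. Alternatives covered normalization, the offset, the dim filter, the choice of probe set, array sets, the sex inferred from the arrays, a replicate block and leaving out arrays.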

Additional observations from a re-analysis of the deposited data

Results flagged for a closer look

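Psmb7 stood out in CKO hearts of 2 weeks because 1 of the 4 arrays lay far from the others: its intensities were 1988 on array 2 against 1755, 1757 and 1766, and the gap made up 0.95 of the group's range. Dixon's test was run on 28 groups of member values, and chance picks out about 1 in 20. The CKO effect on the dim Psmb9 had opposite signs at the 2 ages against the group means: each of the 5 CKO arrays of 4 weeks lay below the control mean of log2 values of that age and each of the 4 CKO arrays of 2 weeks lay above its own. Within array set 1 at 4 weeks the values were 89.4 and 73.2 in CKO hearts and 85.9 in the control heart, and at 2 weeks 1 control array (56.2) lay above all CKO arrays. The difference of the effects was -1.14 ± 0.48 on the log2 scale (limma adjusted p = 0.525), and -1.18 ± 0.42 with array sets as a block (limma adjusted p = 0.112).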

How the results depend on the processing

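Without a block, 2 members were called at 4 weeks, 0 in the interaction and 1 between ages in CKO hearts. Those 3 counts were 16, 9 and 17 with array sets as a block, 14, 7 and 16 with quantile normalization added, 10, 4 and 12 in set 1 alone, 13, 4 and 11 in set 2 alone, and 17, 5 and 17 with array set and inferred sex as blocks. Arrays inferred to be female were 4 of 5 CKO and 1 of 3 control at 4 weeks, and 1 of 4 CKO and 1 of 3 control at 2 weeks. Scaling to 1 median gave 0 at 4 weeks and 0 between ages in CKO hearts, and quantile normalization and the mean of all probe sets of a gene each gave 2 between ages. Leaving out 1 array gave 0 to 3 calls at 4 weeks, 0 in the interaction and 1 between ages in CKO hearts, and with the array-set block 13 to 18 at 4 weeks, 4, 5, 6, 7, 8 or 9 in the interaction and 16 to 18 between ages. The 2-week comparison gave 0 under each alternative run. The control comparison between ages gave 0 to 1, the 1 with the block and without control array 1 or CKO array 4 of 4 weeks. The cause of these shifts was not tested.

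With the replicate number as a replicate block, 0 members were called at 4 weeks and 0 between ages in CKO hearts. Deviations of same-numbered CKO and control arrays correlated at 0.828, -0.553 and 0.584 at 4 weeks, so the numbers were not taken to pair the arrays there. At 2 weeks they correlated at 0.814, 0.665 and 0.890, where same-numbered arrays also lay in the same array set, and the replicate block called 0 members. Single values were followed over 42 alternatives and 5 comparisons for the genes named by rule, not for all members. The genes were Psma5, Psmb3, Psmb5, Psmb6, Psmb7, Psmb8, Psmb9, Psmb10, Psmc4, Psmd5, Psmd8, Psme1, Psme4 and Psmg1. Of these values, 2304 kept their direction and their side of the threshold, and 286 turned in sign and were called in neither fit. A further 336 gained a call and 14 lost one, and 0 turned in sign with a call in either fit. No detection call was used, so how far the dim genes stood above background is unknown.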
